A study of Homo sapiens with 3 samples.

Results

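The transcripts described here are 7 noncoding RNAs that carry small nucleolar RNAs (snoRNAs) in their introns: GAS5, SNHG1, SNHG3, SNHG12, ZFAS1, SNHG8 and SNHG6. Members were chosen by position. Every interval of the 3 deposited lists that overlapped a fixed span on the same strand in build hg19 was taken, whatever its value. That gave 86 of 103134 clusters in replicate 1, 75 of 66222 clusters in replicate 2 and 10 of 2253 reproducible peaks. The study used crosslinking and immunoprecipitation with sequencing (eCLIP), in which ultraviolet light fixes a protein to the RNA it touches before the protein is pulled down and its RNA is read. All samples came from HEK293T, an established line of human embryonic kidney origin, irradiated with 600 mJ, with no other treatment or genotype given. The groups were 2 samples precipitated with anti-TIA1 and 1 input without antibody. One label field assigns the antibody's catalogue number to Msi1, and the replicates are called technical in one text and biological in another, so their spread may be technical.

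TIA1 binds U-rich RNA, helps the splicing machinery at weak splice sites, and can hold back translation. A snoRNA host gene is transcribed and spliced like a messenger RNA. The snoRNAs are trimmed out of the removed introns and guide chemical modification or processing of ribosomal RNA, while the spliced exons make no well-defined protein and are often degraded by nonsense-mediated decay. The snoRNA families are box C/D and box H/ACA, each named for short conserved boxes. Many hosts begin with a cytosine and a pyrimidine tract, the 5′ terminal oligopyrimidine start of transcripts tied to growth.

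RefSeq places 31 snoRNA genes within the 7 hosts on GRCh38: 11 in GAS5, 9 in SNHG1, 4 in SNHG12, 3 in ZFAS1, 2 in SNHG3 and 1 each in SNHG8 and SNHG6. By name, 23 are box C/D and 7 box H/ACA. One of each family is printed to show what the introns hold. They were read from GENCODE 29, which matched 17 of the 31 names. Capitals mark the box C letters TGATGA and, at the 3′ end, the box D letters CTGA of SNORD12C from ZFAS1, and the ACA box of SNORA24 from SNHG8.
SNORD12C: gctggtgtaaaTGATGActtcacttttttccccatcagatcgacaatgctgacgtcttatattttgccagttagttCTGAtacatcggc
SNORA24: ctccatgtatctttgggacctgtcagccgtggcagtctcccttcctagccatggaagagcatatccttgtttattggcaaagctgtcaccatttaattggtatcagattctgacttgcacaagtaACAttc

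The U-rich stretches of 5 spliced hosts are shown because TIA1 is a U-rich binder. For each of them the longest GENCODE 29 transcript with a RefSeq match was used, or the longest of all where none matched, and the 40 bases with the most T were taken. Capitals mark runs of at least 3 T, which the stretch of ZFAS1 lacks.
SNHG1: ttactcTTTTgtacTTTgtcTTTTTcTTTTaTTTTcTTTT
SNHG3: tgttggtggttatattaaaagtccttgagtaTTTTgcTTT
SNHG8: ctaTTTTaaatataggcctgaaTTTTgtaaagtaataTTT
GAS5: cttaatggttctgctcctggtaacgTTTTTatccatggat
ZFAS1: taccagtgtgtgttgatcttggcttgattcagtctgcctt
SNHG1 stood highest with 29 T of 40, at positions 32 to 71 of its transcript. The other 4 held 17 to 20, near the median of 19 over 20568 long noncoding transcripts. The 5 hosts shown are those with reproducible peaks, so these stretches allow no comparison with hosts that have none. A run of TTTTT occurred in 4 of the 7 chosen transcripts, against 63.1% of all, and not in those of ZFAS1, SNHG8 or SNHG6. For ZFAS1 this depends on the transcript chosen, as 2 of its 3 considered transcripts held such a run. For SNHG8 and SNHG6 it was 0 of 3 each. These letters come from spliced RNA on the GRCh38 build. No genome of the build of the lists was used here, so no cluster was placed against a sequence, an exon, an intron or a snoRNA.

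Starts were read from the RefSeq table (build GRCh38.p14), which matched 6 of the 7 hosts. A start of C followed by at least 4 more C or T was found in 2 of them, SNHG12 and ZFAS1, and in 4.07% of 35116 starts in that table. Of the other matched hosts, GAS5 began with A and SNHG3 with G. SNHG1 and SNHG8 began with C, in pyrimidine tracts of 3 and 1 bases. Only the annotated first base was read, and starts near it were not tried. The first 50 transcribed bases of SNHG12 and ZFAS1 are printed to show the tract. SNHG12 starts on the minus strand of chromosome 1 (chr1:28581824-28581873), ZFAS1 on the plus strand of chromosome 20 (chr20:49278642-49278691), and capitals mark the tract.
SNHG12 start: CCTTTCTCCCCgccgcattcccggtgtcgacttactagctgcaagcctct
ZFAS1 start: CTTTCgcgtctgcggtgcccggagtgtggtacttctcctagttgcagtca

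Library totals recovered from the deposited values were 2683407 reads in replicate 1, 1997817 in replicate 2 and 2851338 in the input. Host clusters were better covered than the lists at large, with a median of 13 clip reads in replicate 1 and 11 in replicate 2, against 4 and 4. These medians use the smallest possible read pair where the reads were not unique. Host clusters also had more input reads, with medians of 6 and 9 against 1 and 1. A level of bound RNA cannot be told apart from the amount of host RNA in these read numbers, and only the log2 fold over input, the authors' library-scaled ratio of clip to input reads, sets them against abundance.

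The hosts held clusters at both ends of the scale. A cluster was called enriched when its log2 fold and its −log10 p over input both reached 3. In replicate 1, 12 of 86 host clusters were enriched, where 3.09% of all clusters were. In replicate 2 it was 13 of 75 (17.3%), where 5.32% of all clusters were. Read number moves with that share. Among clusters with at least 10 clip reads, 12 of 55 in the hosts (21.8%) stood beside 25.6% of the list in replicate 1. In replicate 2, 13 of 45 (28.9%) stood beside 50.7%. Above this floor the share was thus lower in the hosts than in the list in each replicate, and the difference was not tested. The floor does not match the sets on reads: above it, host clusters had median input reads of 8 and 9, against 3 and 2 in the lists. It was set on the smallest read pair where the reads were not unique, as for every cluster below the input. Some such clusters with at least 10 true reads may thus be left out of these shares. At a lower log2 fold of 1 with an adjusted p under 0.05 (Fisher's exact test over input), 19 host clusters (22.1%) passed in replicate 1, where 5.57% of the list did, and 22 (29.3%) in replicate 2, where 9.9% did. Among clusters with at least 10 clip reads this order turned too, with 34.5% of the host clusters beside 46.2% of the list in replicate 1 and 48.9% beside 71.8% in replicate 2.

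Clusters dominated by the input were the other end. Below the input, at a log2 fold under 0, lay 32 of 86 host clusters of replicate 1 (37.2%), where 5.68% of the list did, and 29 of 75 of replicate 2 (38.7%), where 3.98% did. A log2 fold of −2 or lower was found in 19 of 86 host clusters of replicate 1 (22.1%), where 0.25% of all clusters were so low. Replicate 2 gave 19 of 75 (25.3%), where 0.281% were. With at least 10 clip reads the shares were 11 of 55 (20.0%) beside 0.836%, and 10 of 45 (22.2%) beside 0.877%. That floor was applied to the smallest read pair, so clusters with more true reads may be missing from these shares. The 7 hosts held 7.36% of all clusters at −2 or lower in replicate 1 and 10.2% in replicate 2. Each of the 7 had at least 1 of them in each replicate, over the same input. By Fisher's exact test over input, on the smallest read pair and adjusted over the list, 18 of the 19 in replicate 1 and 19 of the 19 in replicate 2 passed at an adjusted p under 0.05. That is 20.9% and 25.3% of the host clusters, where 0.218% and 0.252% of the lists passed. The limit of −2 was chosen after the values were seen.

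**Figure D1:**
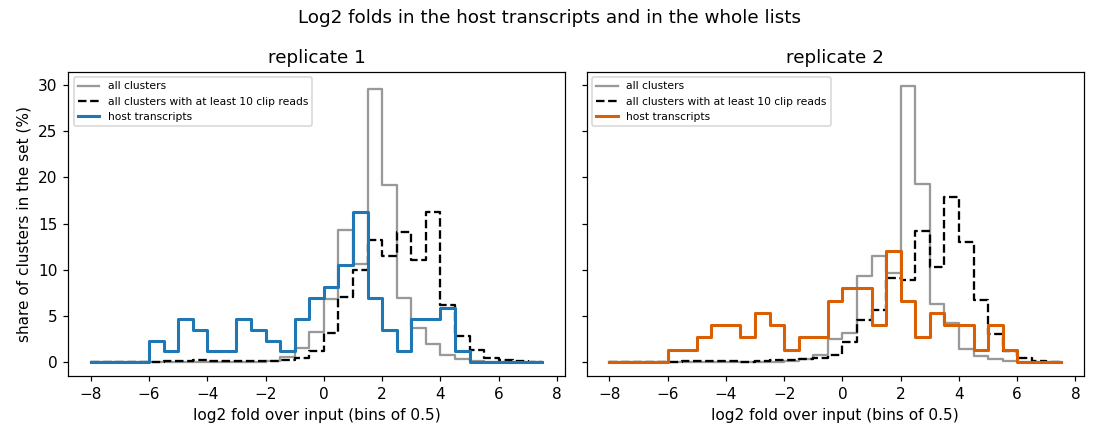
Log2 fold over input (horizontal axis, bins of 0.5) against the share of clusters (vertical axis, percent) in each replicate, for the host clusters (86 and 75), all clusters and all clusters with at least 10 clip reads. The host clusters extend to −5.92 and −5.76, where the whole lists have almost none, and have medians of 0.73 and 0.51 against 1.67 and 2.10 for all clusters.

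Enriched and input-dominated clusters were interspersed along the hosts. Overlapping clusters of both replicates were joined into 96 sites, of which 56 had clusters of both. A site was enriched in either replicate at 14 places and at −2 or lower at 21, and 0 sites were both. A site joins overlapping clusters set over the same input, so that 0 was close to fixed in advance. The input-dominated sites lay 134 to 804 nt from the nearest enriched site of the same host, over the 5 hosts that had one. On the opposite strand of the 7 spans there were 0 clusters in each replicate.

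**Figure D2:**
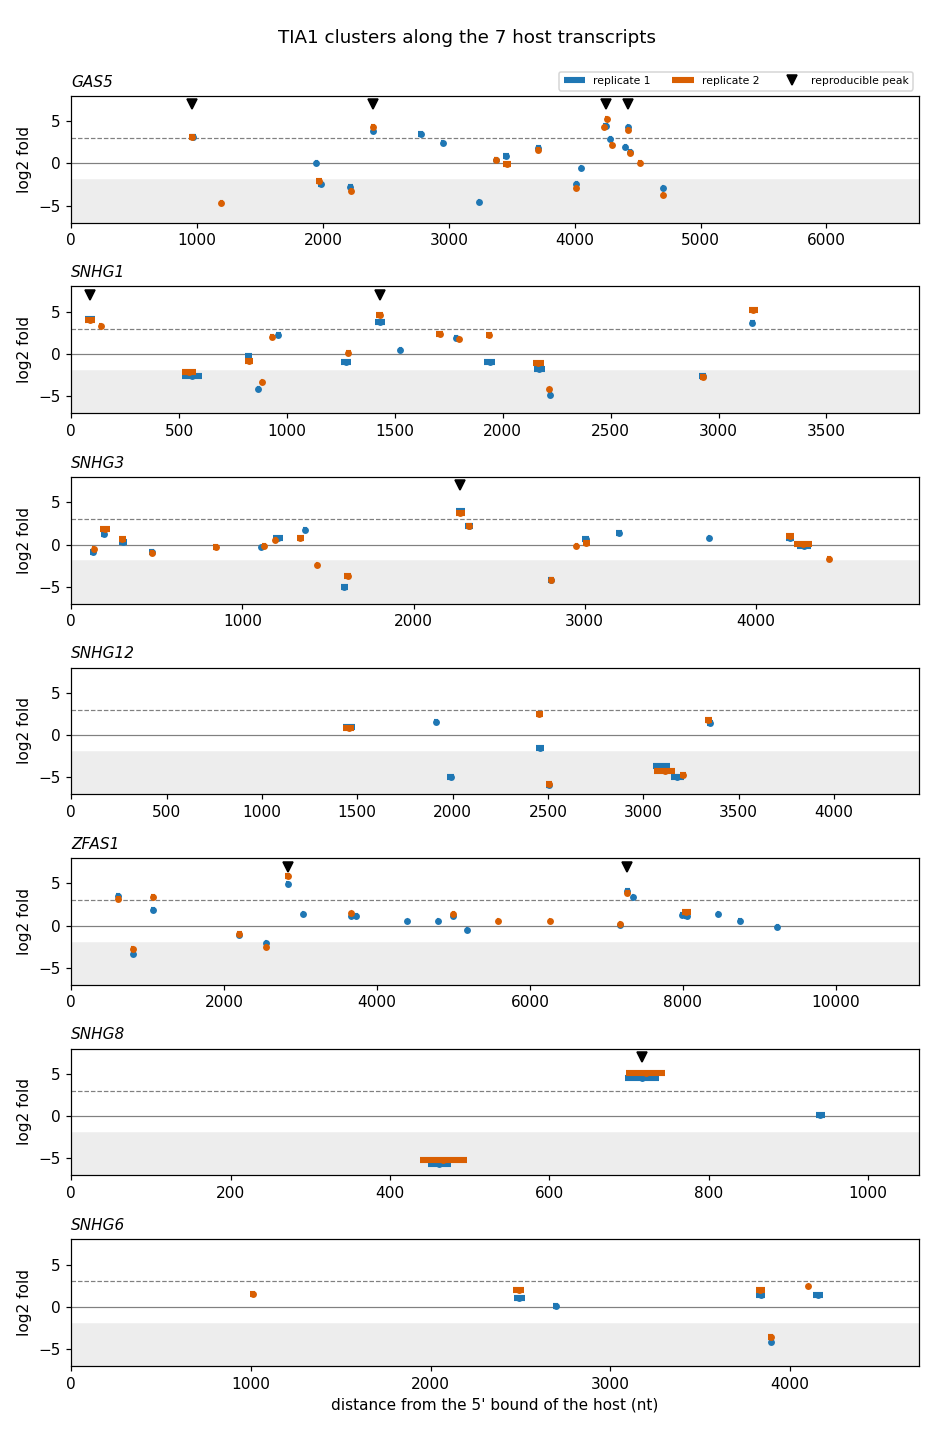
Clusters along each host, by distance from the 5′ bound of its span (nt, horizontal axis) and log2 fold over input (vertical axis), with blue for replicate 1 and orange for replicate 2. Bars give the extent of a cluster, triangles mark the 10 reproducible peaks, the dashed line is a log2 fold of 3 and the shaded band is −2 and lower. Every host has clusters in the band, and SNHG12 and SNHG6 have none above the dashed line.

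Counts of enriched clusters were alike between the replicates, though not always from the same sites. An enriched cluster was present in 5 of the 7 hosts, GAS5, SNHG1, SNHG3, ZFAS1 and SNHG8, in both replicates. The same 5 hosts held the 10 reproducible peaks: 4 in GAS5, 2 in SNHG1, 2 in ZFAS1 and 1 each in SNHG3 and SNHG8. These were 0.444% of the list. Their median log2 fold was 4.12, with 4.15 for all peaks, and their median −log10 p was 7.18, with 4.88 for all. They were 12 to 72 nt wide with a median of 46 nt, where the list has 53 nt.

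**Figure D3:**
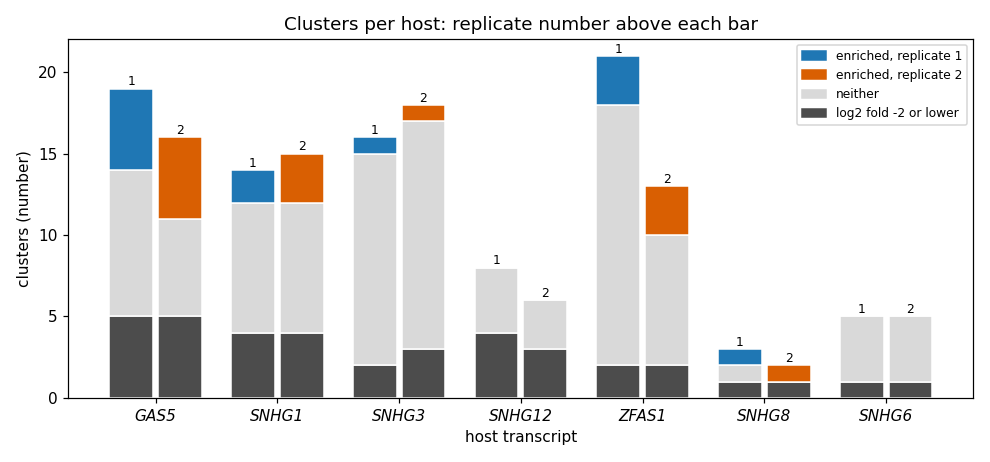
Number of clusters per host (vertical axis), with replicate 1 on the left and replicate 2 on the right of each pair. Each bar splits into clusters at a log2 fold of −2 or lower (dark), enriched clusters (coloured) and the remainder (pale). GAS5 has 5 enriched and 5 dark clusters in each replicate, not all at the same sites, while SNHG12 and SNHG6 have 0 enriched.

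The hosts of mainly box C/D snoRNAs come first. GAS5, named for growth arrest, spans 173831290 to 173838020 on the minus strand of chromosome 1 and hosts the most snoRNAs of the 7. It had 19 clusters in replicate 1 and 16 in replicate 2, with 5 enriched in each. Its strongest peak, at 4227 to 4268 nt from the 5′ bound (173833753 to 173833794), held 84 reads in replicate 1, 109 in replicate 2 and 4 in the input. Replicate 1 gave a log2 fold of 4.48 and replicate 2 one of 5.28, with 4.88 ± 0.57 (SD, n = 2) in the list. Replicate 2 was higher, and this was the 1 host peak whose reads differed between replicates beyond counting error (Fisher's exact test, adjusted over 2247 peaks by Benjamini and Hochberg's method, adjusted p = 0.0144). These numbers use the bounds of replicate 1. In its own list replicate 2 had 2 enriched clusters here, at 4221 to 4236 and 4237 to 4268. Their log2 folds were 4.35 on 43 reads over 3 and 5.23 on 105 reads over 4. The 5 enriched clusters of each replicate are thus not 5 shared sites.

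A second GAS5 peak followed. It covered only 12 nt, from 4414 to 4425 (173833596 to 173833607), with 91, 56 and 5 reads in replicate 1, replicate 2 and input and a log2 fold of 4.14 ± 0.19 (SD, n = 2). The cluster that joins it on the 3′ side, at 173833567 to 173833595, had 90 and 63 clip reads, but 39 input reads. Its log2 folds were 1.29 and 1.21. The adjoining clusters thus differed far more in input than in clip reads.

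The other GAS5 peaks lay nearer the 5′ bound. The peak at 2378 to 2412 (173835609 to 173835643) held 27 reads in each replicate over 2, a log2 fold of 4.06 ± 0.30 (SD, n = 2). The peak at 938 to 984 (173837037 to 173837083) held 57 and 42 reads over 7, with 3.11 ± 0.01 (SD, n = 2). It had the lowest fold of the 10 host peaks and the smallest difference between replicates. One cluster was enriched in replicate 1 alone, at 2758 to 2796, with 21 reads over 2 and a log2 fold of 3.48. No cluster of replicate 2 overlapped it.

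GAS5 also had 5 clusters at −2 or lower in each replicate. Replicate 1 had −2.41 at 1960 to 2001, and replicate 2 had −2.13 at 1948 to 1993. At 2198 to 2235 and 2211 to 2227 the replicates gave −2.82 and −3.28. At 4002 to 4023 and 4000 to 4018 they gave −2.48 and −2.89. Near the 3′ end of the clustered stretch (4693 to 4712 and 4692 to 4713) they gave −2.90 and −3.80. The last pair had at least 119 input reads in each replicate's record. The lowest values came from 1 replicate each, −4.56 at 3232 to 3244 in replicate 1 and −4.63 at 1179 to 1202 in replicate 2. All the input-dominated places of GAS5 lay 3′ of its first enriched peak, some between the enriched peaks and 1 beyond the last.

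SNHG1 spans 62619460 to 62623386 on the minus strand of chromosome 11 and is the host of a row of SNORD genes, SNORD22 and SNORD25 among them. It had 14 clusters in replicate 1 and 15 in replicate 2. Its first peak lay almost at the 5′ bound, 63 to 112 nt from it (62623275 to 62623324), with 34 and 23 reads over 2 and a log2 fold of 4.11 ± 0.10 (SD, n = 2). The peak at 1409 to 1453 (62621934 to 62621978) had 25 and 36 reads over 2, with log2 folds of 3.73 and 4.68 and a mean of 4.21 ± 0.67 (SD, n = 2). The second peak was higher in replicate 2 (Fisher's exact test, unadjusted p = 0.0133, adjusted p = 0.231), which did not pass.

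The remaining enriched site of SNHG1, 3142 to 3182 nt from the 5′ bound, reached a log2 fold of 5.16 in replicate 2 on 25 reads over 1. In replicate 1 the overlapping cluster had 12 reads over 1, a log2 fold of 3.67 and a −log10 p of 2.86, just short of the limit. It is not in the reproducible list. Input-dominated clusters of SNHG1 lay at 512 to 604 (−2.63 in replicate 1; −2.16 at 514 to 577 in replicate 2) and at 2208 to 2229 (−4.85). They also lay at 862 to 873 (−4.14) and at 2908 to 2944 (−2.58). In replicate 2 a cluster within 2208 to 2229 gave −4.10, 879 to 888 gave −3.28 and 2916 to 2940 gave −2.69. In SNHG1, as in GAS5, each replicate placed such clusters between the enriched sites.

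ZFAS1, the host of the 3 SNORD12 genes, spans 47894715 to 47905797 on the plus strand of chromosome 20. Its peak at 2801 to 2860 nt (47897515 to 47897574) had the highest fold of the host peaks. Replicate 1 held 28 reads and replicate 2 held 42 over an input number of 1, giving log2 folds of 4.89 and 5.91 and a mean of 5.40 ± 0.71 (SD, n = 2). That is 42.2-fold. The reads were relatively higher in replicate 2 without passing (Fisher's exact test, unadjusted p = 0.00506, adjusted p = 0.132). An input number of 1 is the smallest that occurs, so this fold, like the others over 1, rests on the thinnest input.

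The second ZFAS1 peak, at 7239 to 7310 (47901953 to 47902024), rested on 16 and 10 reads over 1. Its log2 fold was 3.96 ± 0.18 (SD, n = 2) and its −log10 p of 3.01 was close to the limit of the list. Further sites were enriched in 1 replicate only. At 581 to 633 replicate 1 had 3.48 on 21 reads over 2, and at 590 to 645 the overlapping cluster of replicate 2 had 3.10 with a −log10 p of 2.85. At 1049 to 1091 replicate 2 had 3.42 on 15 reads over 2, where replicate 1 had 1.89 on 14 over 4. Between these and the strongest peak, clusters fell below the input in both replicates, at 787 to 822 (−3.37) and 780 to 827 (−2.79), and at 2537 to 2562 (−2.02) and 2540 to 2563 (−2.51). The value of −3.37 has a smallest read pair of 1 over 11 and was the 1 input-dominated cluster that did not pass in replicate 1 (adjusted p = 0.0893, Fisher's exact test).

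SNHG6, host of SNORD87 on chromosome 8 (67833919 to 67838633, minus strand), had 5 clusters in each replicate and 0 enriched. The highest log2 fold reached 1.41 in replicate 1 and 2.51 in replicate 2, the latter on 4 reads over 1. A cluster at 3881 to 3907 in replicate 1 and at 3879 to 3907 in replicate 2 had log2 folds of −4.17 and −3.52. Both records gave an input of at least 115 reads, beside at least 6 and 7 clip reads. A neighbour at 3811 to 3862 and 3808 to 3863 was above the input, with 1.37 on 17 reads and 2.03 on 20 reads over 7. These neighbouring clusters thus lay on opposite sides of the input in both replicates.

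All snoRNAs of SNHG3 and SNHG8, and 3 of the 4 of SNHG12, are box H/ACA by name. SNHG3 carries SNORA73A and SNORA73B, spans 28832455 to 28837404 on the plus strand of chromosome 1, and overlaps the gene RCC1 on the same strand in GENCODE 29, so its reads may be shared with that gene. It had 16 clusters in replicate 1 and 18 in replicate 2 with 1 enriched in each. This was the peak at 2246 to 2298 (28834700 to 28834752), with 58 and 38 reads over 4 and a log2 fold of 3.85 ± 0.13 (SD, n = 2). The input dominated on each side of it. At 1576 to 1614 replicate 1 gave −5.08 and at 1595 to 1634 replicate 2 gave −3.70. At 2788 to 2814 and 2789 to 2820 the values were −4.24 and −4.14. Replicate 2 had a further cluster at 1431 to 1441 with −2.45. Whether any of these sites are the snoRNA genes of SNHG3 was not tested.

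SNHG8, host of SNORA24, is the shortest of the 7, from 119199916 to 119200978 on the plus strand of chromosome 4. Its 3 clusters in replicate 1 and 2 in replicate 2 showed the contrast in its simplest form. The peak at 695 to 737 (119200610 to 119200652) held 21 and 24 reads over 1, with log2 folds of 4.48 and 5.10 and a mean of 4.79 ± 0.44 (SD, n = 2). The cluster at 447 to 476 in replicate 1 had a log2 fold of −5.63, with at least 7 clip and 368 input reads, and the one at 437 to 497 in replicate 2 had −5.13. The 2 sites are 197 nt apart.

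SNHG12, whose introns hold SNORD99, SNORA61, SNORA44 and SNORA16A, spans 28905050 to 28909492 on the minus strand of chromosome 1. It had 8 clusters in replicate 1 and 6 in replicate 2, with 0 enriched. It held the lowest value of all host clusters in each replicate, −5.92 at 2489 to 2519 in replicate 1 and −5.76 at 2491 to 2523 in replicate 2, with at least 513 and 543 input reads. Adjoining clusters at 3052 to 3142 (−3.65) and 3143 to 3213 (−4.91) in replicate 1 matched those at 3057 to 3166 (−4.28) and 3193 to 3226 (−4.74) in replicate 2. A cluster at 1970 to 2008 gave −4.99 in replicate 1 only. The highest cluster of replicate 2 reached a log2 fold of 2.51 and that of replicate 1 stayed lower, on 8 reads over 3.

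One SNHG12 site differed widely between the replicates. At 2437 to 2477 replicate 1 had a log2 fold of −1.52, and at 2435 to 2472 replicate 2 had 2.51 on 24 reads over 6. The smallest read pair of replicate 1 was 19 over 58. The input number was thus at least 58 in one record and 6 in the other, over intervals with different bounds. The part of the bounds in the difference was not tested. This site had the largest difference between replicates, 4.04 on the log2 scale, among the 50 host sites with 1 cluster in each replicate.

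The other sites lay closer, though not always on the same side of the input. In SNHG1, replicate 1 had −0.91 at 1915 to 1963 and replicate 2 had 2.28 at 1923 to 1952. Over those 50 sites the median absolute difference was 0.46 on the log2 scale. On the same side of the input in both were 46, and replicate 2 was higher in 30. The same values over the whole lists are not given here, so no comparison with them is drawn. Both replicates were set over the same 1 input, so an error in the input can move both folds alike. This likeness of the folds is therefore not fully independent. Of the host clusters of replicate 1, 61 of 86 (70.9%) overlapped a cluster of replicate 2, where 28.9% of the list did. In the other direction it was 60 of 75 (80.0%), where 45.0% did. With at least 10 clip reads the shares were 85.5% beside 79.4% and 93.3% beside 93.2%, a smaller excess than without that floor. Sites enriched in both replicates numbered 10, and each of these overlapped a reproducible peak, a list drawn from the same values.

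Reads at the 10 reproducible peaks were compared between the libraries by Fisher's exact test. Of 2247 peaks with whole reads, 1.82% differed at an adjusted p under 0.05. Among the host peaks 1 of 10 did, the GAS5 peak at 4227 to 4268. An unadjusted p under 0.05 was found in 3 of 10, beside 230 of the 2247 in the list. The fold was higher in replicate 2 in 5 of the 10, beside 1296 of all 2253 peaks. The median absolute difference was 0.35 on the log2 scale, with 0.29 over the whole list.

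**Figure D4:**
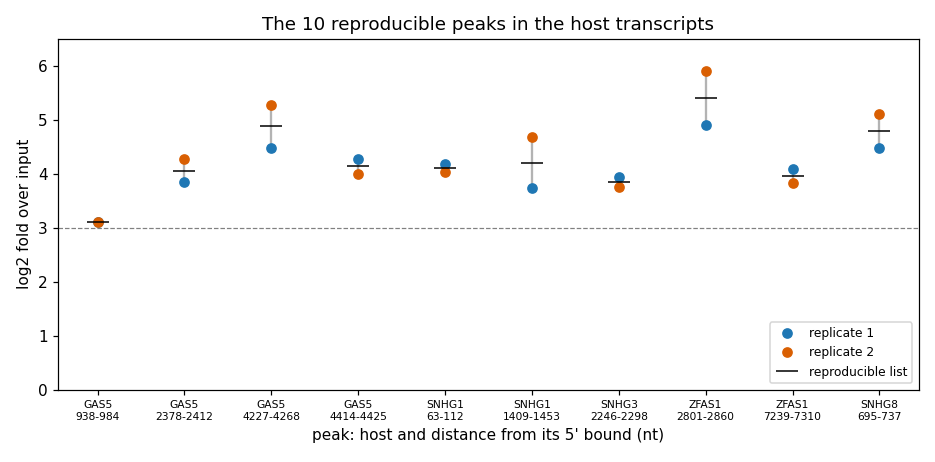
Log2 fold over input (vertical axis) at each of the 10 reproducible peaks, named by host and distance from its 5′ bound in nt. Points are replicate 1 (blue) and replicate 2 (orange), and the black line is the value of the reproducible list. The points lie between 3.10 and 5.91, and ZFAS1 at 2801 to 2860 has the highest values and the widest gap.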

How the data were processed

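The clip samples were 2 replicates and the control 1 input of HEK293T cells, whose own read file was not used here. The build was hg19, and STAR 2.4.0i, SAMtools 1.4.1 and cutadapt (1.9.1 and 1.14) are named, per the submitters' processing notes; which program called clusters is not given in the sources used here. For their part, the authors deposited a −log10 p-value and a log2 fold over input for each interval, per replicate and for 1 reproducible list; the units were read from the values. The members and lists were chosen with earlier results of these data known. All 7 members are named with their reproducible peaks, their clusters enriched in either replicate and their highest clusters; those at −2 or lower were named after their values were seen. The U-rich stretches of the other 2 hosts are not reported here. Other snoRNA hosts were not analysed here, since no hg19 annotation was used.

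Whole reads were recovered from the deposited values: the commonest fold was read as 3 reads over 1, and multiples 1 to 6 of the smallest library totals were compared on the deposited p-values (3 was kept). A read pair was taken where 1 multiple of the reduced fraction returned the p-value within a relative 2e-05 plus 1e-05. This gave reads for 89.6% and 96.0% of clusters. Elsewhere, as for every cluster below the input, only the smallest pair is known, and "at least" is written. At a reproducible peak the replicate that did not supply the bounds has the value that makes the listed fold the mean; all 10 host peaks then had whole reads within 1e-04. Intervals and read numbers cover counting error only. Each SD compares 2 clip libraries over the same input reads, so it holds no input error. Scripts were tested on simulated data (Python 3.11.15, scipy 1.17.1, pandas 2.3.3). Overlap is at least 1 nt on the same strand.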

Additional observations from a re-analysis of the deposited data

How the results depend on the processing

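Of 29 alternative settings, 17 kept a count within 1.5 times or a share within its interval, and 12 moved; settings for the clusters at −2 or lower were chosen after seeing the data. With both limits raised (log2 fold 4, −log10 p 5), enriched host clusters numbered 5 in replicate 1 and 8 in replicate 2, and with a log2 fold of 1 and an adjusted p under 0.05 (Fisher's exact test) 19 and 22. On the opposite strand there were 0 enriched clusters in each replicate, 0 reproducible peaks and an overlap of 0%. With at least 10 recovered reads the overlap share rose from 70.9% (exact 95% interval 60.1 to 80.2) to 82.1%. That is over 39 clusters with unique reads, none of them below the input. The 85.5% given above is over 55 clusters, which include those known only by the smallest pair. At −3 or lower, 12 clusters in each replicate replaced 19. Among peaks with the bounds of replicate 2, 0 host peaks differed between replicates, because the GAS5 peak that differed takes its bounds from replicate 1. Leaving out either replicate left 5 hosts with an enriched cluster. No paired analysis was possible because the input is 1 sample with no replicate number. Folds over an input number of 1 are limited by input depth. They occurred at 3 of the 10 host peaks, beside 1152 of the 2253 peaks of the list.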
